A study of Sus scrofa with 48 samples.

Results

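A set of 8 genes of pig liver in which a line of pigs with low residual feed intake (RFI) stood apart from a line with high RFI is described here, probe by probe and pig by pig. The genes are PCIF1, HEATR4, ZNF174, IPP, USP33, LZTFL1, NTN1 and PIGL. They were chosen by their line difference in these same arrays, because nearly all low RFI pigs lay beyond the median of the high RFI pigs, or because they differed between the lines in all tissues of the study. For this reason the line values of the 8 genes are given as a description, without a test. The 8 genes had 12 probes by gene name or accession, and 6 further probes were assigned to them by the probe list of the study, by a gene ID or by an accession in the probe name. The 8 genes are part of 11040 genes with a tested probe, and their 18 probes are part of 60305 probes on the array, of which 45236 had enough signal to be tested.

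RFI is the part of feed intake that growth and body composition do not account for, so that a pig of low RFI eats less than its performance would predict. Liver samples came from 48 purebred Large White barrows of lines divergently selected for RFI over 8 generations, 24 pigs per line. Within each line, 12 pigs received a high-fat high-fiber diet (HF) and 12 a low-fat low-fiber diet (LF) from 74 days of age, which gives 4 groups: HF_RFIneg and LF_RFIneg of the low RFI line, and HF_RFIpl and LF_RFIpl of the high RFI line. Livers were taken at 18.9 weeks of age, 2 h after the last meal, and the RNA of each pig was hybridized with a single dye to an array of its own. Pigs of a line share their ancestry, so that selection on RFI and drift within these lines cannot be told apart.

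The 8 genes belong to several cell functions. PCIF1 is the enzyme that methylates the adenosine next to the cap of messenger RNA, and ZNF174 is a zinc finger protein with a SCAN domain that can repress transcription. USP33 removes ubiquitin from proteins, and IPP belongs to the BTB-kelch proteins, many of which present substrates to CUL3 ubiquitin ligases. LZTFL1 binds the BBSome, a coat complex that carries membrane proteins in and out of the primary cilium. NTN1 is netrin-1, a secreted guidance cue sensed by DCC, NEO1 and UNC5 receptors, and PIGL removes an acetyl group early in the synthesis of the GPI anchor that tethers many proteins to the cell surface. HEATR4 is a protein with HEAT repeats.

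On 65.8 to 77.2% of probes, according to the array, the signal was well above background, and the 18 probes of the 8 genes were well above background on all 48 arrays. Arrays were spread over 6 slides with 2 pigs per group on each, and over 2 scan days with 6 pigs per group on each. The hepatocyte markers were bright in every pig, with a mean log2 level between 9.98 and 10.74 above the array median, and ALB, encoding serum albumin, was at 11.14 on average. The 8 lists of markers of liver cell types were read on the probe of highest mean signal per gene. Of these, 1 of 7 tested hepatocyte genes (APOA1, 0.15 ± 0.05) and 1 of 4 cholangiocyte genes (KRT7, -0.35 ± 0.12) passed the line cut-offs described below. No gene of the other 6 lists did, where 6.97% of all genes passed. With any probe of a gene counted, 6 of 48 marker genes passed, against 9.78% of all genes. They included 2 of 9 Kupffer genes, 2 of 4 cholangiocyte genes and 1 of 7 genes of stellate cells and fibroblasts. Median differences of the lists were 0.04 for hepatocytes, 0.09 for endothelial cells, 0.06 for stellate cells and fibroblasts and 0.38 for erythroid cells, and -0.18 for Kupffer cells (7 of 9 genes lower in the low RFI line), -0.11 for T and NK cells, -0.18 for B and plasma cells and -0.16 for cholangiocytes. The ranges of the mean level of every list overlapped between the lines. In whole liver, fewer cells of a type and less RNA per cell cannot be told apart, and the part of cell types in the differences below was not tested.

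All values below are log2 signals relative to the median of their array, a line difference is the mean of the low RFI line minus that of the high RFI line, and its error is the SE of the linear model over 48 pigs. Probes of a gene are numbered from the highest mean signal. Of the 18 probes, 15 passed the cut-offs of the study for a line effect (P under 0.01 and fold change, FC, over 1.1), 11 of them with the higher signal in the low RFI line and 4 with the lower. The count was 13 with the normexp background correction (without ZNF174-2 and ZNF174-3), 11 among the pigs of scan day 1 (without NTN1-1, NTN1-2, PIGL-1 and PIGL-2) and 12 among those of scan day 2 (without ZNF174-2, ZNF174-3 and PIGL-2). Among all tested probes 6.91% passed these cut-offs, and 3.93% did at a Benjamini-Hochberg adjusted P (P-BH) of 5%. The share of probes with at least 22 of 24 low RFI pigs on 1 side of the high RFI median was 2.30%, and with all 24 it was 0.422%. Nothing is read from the comparison with these shares, because the genes were chosen on this contrast.

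**Figure D1:**
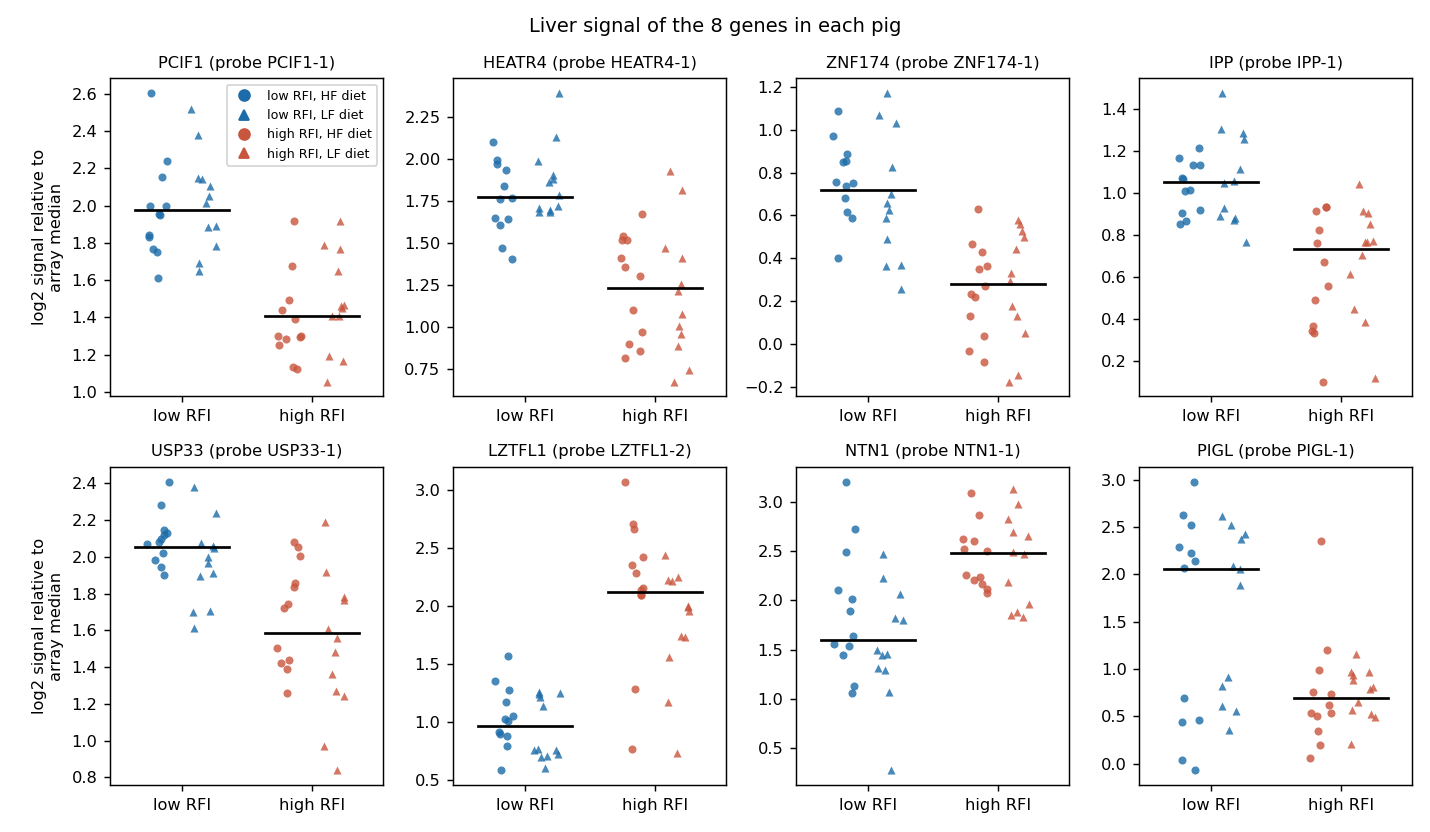
Log2 signal relative to the array median (vertical axis) in each of 48 pigs, by line (horizontal axis, colour) and diet (circles HF, triangles LF), with the probe of each gene that separated the lines best. Black lines are the medians of 24 pigs. The low RFI pigs lie above the high RFI median in PCIF1, HEATR4, IPP and USP33 and below it in LZTFL1, while the low RFI pigs of PIGL fall into a lower set of 10 and an upper set of 14.

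PCIF1 signal was higher in the low RFI line with the probe pair PCIF1-1 and PCIF1-2, and not with PCIF1-3. With PCIF1-1, the low RFI pigs ranged from 1.61 to 2.60 with a median of 1.98, and the high RFI pigs from 1.06 to 1.92 with a median of 1.41. All 24 low RFI pigs lay above the high RFI median and 14 lay above every high RFI pig. The line difference was 0.57 ± 0.07, an FC of 1.48. The probes PCIF1-1 and PCIF1-2 are printed on different spots with the same 60 bases, so that their disagreement measures the error of a spot.
PCIF1-1: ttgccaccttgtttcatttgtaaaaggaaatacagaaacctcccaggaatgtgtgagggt
PCIF1-2: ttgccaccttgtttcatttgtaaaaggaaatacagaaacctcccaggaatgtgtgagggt
PCIF1-3: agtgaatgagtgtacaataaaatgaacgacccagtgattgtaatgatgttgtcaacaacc
The SD of the difference between the identical probes over 48 pigs was 0.06, against an SD of 0.26 between low RFI pigs and 0.25 between high RFI pigs. PCIF1-2 gave a line difference of 0.56 ± 0.08, again with 24 of 24 low RFI pigs above the high RFI median. PCIF1-3, whose sequence has no stretch over 6 bases in common with them, gave -0.11 ± 0.06. Its low RFI pigs ranged from -0.03 to 0.68 and its high RFI pigs from 0.06 to 0.75, and 17 of 24 low RFI pigs lay below the high RFI median. Across pigs, after removal of the group means, PCIF1-3 followed PCIF1-1 with an r of 0.11, while the identical probes followed each other with an r of 0.97 (n = 48, same arrays).

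LZTFL1 showed the largest line difference of the 18 probes, and again on 1 of its probes. These 2 probes share no stretch over 5 bases and are shown because they gave different line differences although both are assigned to LZTFL1.
LZTFL1-1: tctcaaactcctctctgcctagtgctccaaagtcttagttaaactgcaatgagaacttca
LZTFL1-2: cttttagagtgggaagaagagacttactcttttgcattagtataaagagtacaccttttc
With LZTFL1-2, the low RFI pigs ranged from 0.59 to 1.57 with a median of 0.97, and the high RFI pigs from 0.73 to 3.07 with a median of 2.12. All 24 low RFI pigs lay below the high RFI median, and 19 high RFI pigs lay above every low RFI pig. The line difference was -1.02 ± 0.12, an FC of 2.02. The high RFI pigs were the more variable, with an SD of 0.57 against 0.27 in the low RFI line, and 2 of them lay at 0.77 or below, among the low RFI pigs. With LZTFL1-1, the low RFI pigs ranged from 3.48 to 4.17 and the high RFI pigs from 3.51 to 4.33, and the difference was -0.12 ± 0.06. Both probes had the lower signal in the low RFI line, and they followed each other across pigs with an r of 0.67 after removal of the group means. In the plot of probe pairs most high RFI pigs lay above the low RFI pigs of similar LZTFL1-1 signal.

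**Figure D2:**
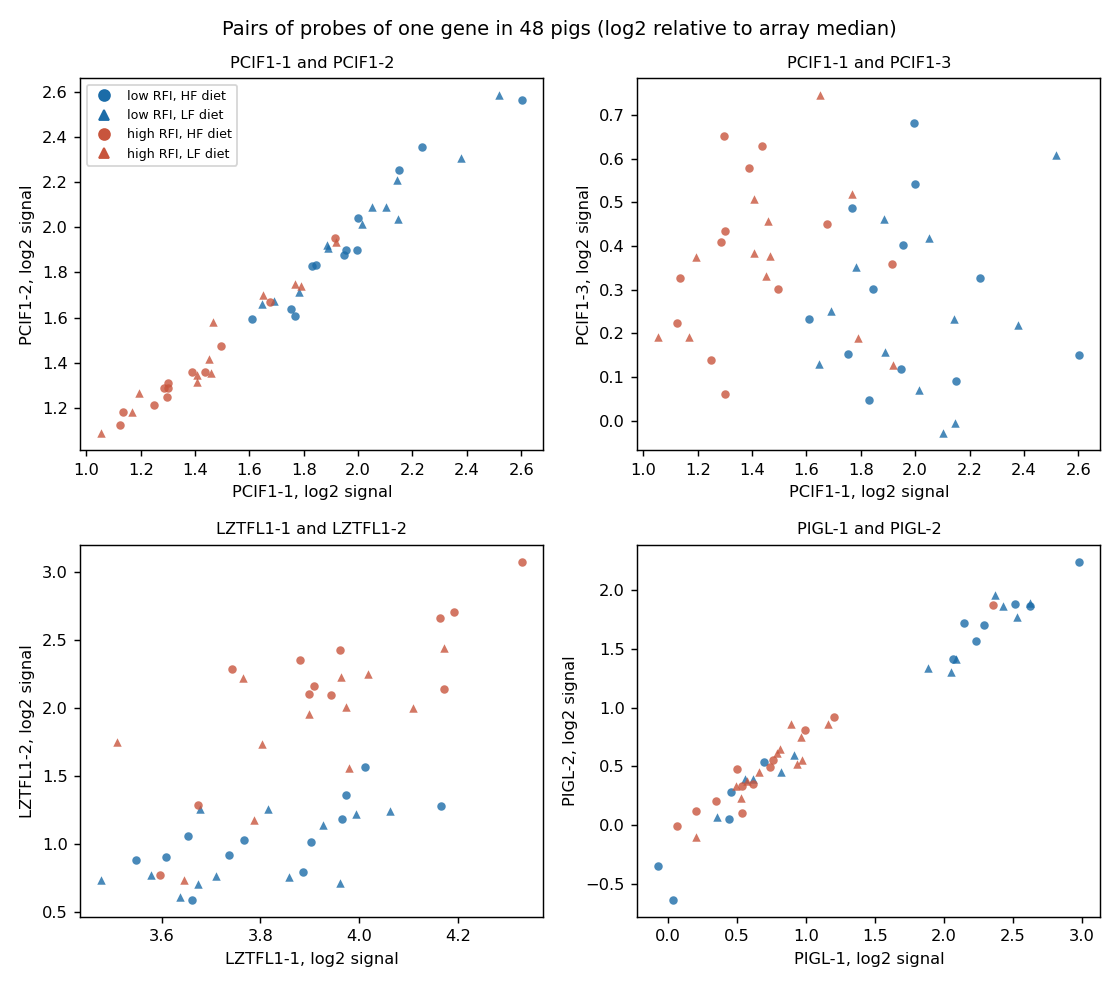
Log2 signal relative to the array median of 2 probes assigned to the same gene in 48 pigs (horizontal and vertical axes, colour for line, circles HF and triangles LF). The identical probes PCIF1-1 and PCIF1-2 lie along a line (r = 0.97 after removal of group means), PCIF1-3 does not follow PCIF1-1 (r = 0.11), LZTFL1-2 separates the lines where LZTFL1-1 overlaps, and both PIGL probes place the same 14 low RFI pigs in the upper set.

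NTN1 signal was lower in the low RFI line on 3 of its 4 probes. The array holds the pair NTN1-1 and NTN1-2, of which 54 bases are shared and printed in capitals, and NTN1-4 is shown for comparison because it did not pass the cut-offs.
NTN1-1: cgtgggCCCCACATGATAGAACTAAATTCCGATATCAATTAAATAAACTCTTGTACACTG
NTN1-2: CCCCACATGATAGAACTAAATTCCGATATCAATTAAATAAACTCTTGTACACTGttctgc
NTN1-4: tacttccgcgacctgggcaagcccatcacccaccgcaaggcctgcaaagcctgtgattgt
With NTN1-1, the low RFI pigs ranged from 0.27 to 3.20 with a median of 1.60, and the high RFI pigs from 1.83 to 3.13 with a median of 2.48. The groups overlapped: 21 of 24 low RFI pigs lay below the high RFI median and 15 lay below every high RFI pig, while the highest of all pigs was a low RFI pig. The line difference was -0.69 ± 0.15, an FC of 1.62, and NTN1-2 gave -0.70 ± 0.14. NTN1-3, which shares no stretch over 6 bases with either, gave -0.97 ± 0.20 and ranged from -2.00 to 0.98 in the low RFI line and from -0.60 to 1.46 in the high RFI line. NTN1-4 gave -0.07 ± 0.06. Here the low RFI line was the more variable, by an SD of 0.63 against 0.39 with NTN1-1, and its signal spanned a 7.63-fold range against 2.46-fold in the high RFI line. Without the lowest low RFI pig, at 0.27, the range was 4.42-fold and the SD 0.56. NTN1-3 followed NTN1-1 across pigs with an r of 0.74, and NTN1-4 with an r of 0.28.

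PIGL signal was split within the low RFI line. Its probes share stretches of 26 and 13 bases, printed in capitals, and they are shown because probes that overlap are not independent readings of the gene.
PIGL-1: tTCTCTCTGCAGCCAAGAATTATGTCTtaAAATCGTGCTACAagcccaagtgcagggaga
PIGL-2: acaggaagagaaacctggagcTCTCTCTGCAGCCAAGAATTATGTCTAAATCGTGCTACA
With PIGL-1, 10 low RFI pigs lay between -0.07 and 0.91 and 14 lay between 1.89 and 2.98, with no pig in the gap of 0.97. Of the high RFI pigs, 23 lay between 0.06 and 1.20 and the other was at 2.35. Thus the lower set of low RFI pigs overlapped the high RFI pigs, and the upper set lay above all but 1 of them. PIGL-2 placed the same 14 low RFI pigs above a gap from 0.59 to 1.30, and the same high RFI pig was its highest, at 1.87. The upper set held 7 pigs fed HF and 7 fed LF, and the lower set held 5 of each diet. The line difference was 0.83 ± 0.22 for PIGL-1 and 0.56 ± 0.19 for PIGL-2, with 16 of 24 low RFI pigs above the high RFI median on either probe. Within the low RFI line the SD of PIGL-1 was 0.98, against 0.45 in the high RFI line.

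HEATR4 had a pair of probes with the same sequence, both of which separated the lines.
HEATR4-1 and HEATR4-2: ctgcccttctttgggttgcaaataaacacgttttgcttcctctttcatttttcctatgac
With HEATR4-1, the low RFI pigs ranged from 1.40 to 2.39 with a median of 1.77, and the high RFI pigs from 0.67 to 1.93 with a median of 1.23. All 24 low RFI pigs lay above the high RFI median, and 15 high RFI pigs lay below every low RFI pig. The line difference was 0.59 ± 0.08 and that of HEATR4-2 was 0.60 ± 0.08, an FC of 1.51 for either. The SD of the difference between these spots was 0.09, against 0.22 between low RFI pigs and 0.35 between high RFI pigs.

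ZNF174 signal was higher in the low RFI line on 3 probes, of which a pair lay well under the array median. The pair shares its 60 bases and shows what a spot of such signal measures, although other tested probes were dimmer.
ZNF174-1: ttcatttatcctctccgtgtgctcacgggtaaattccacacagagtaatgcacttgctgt
ZNF174-2 and ZNF174-3: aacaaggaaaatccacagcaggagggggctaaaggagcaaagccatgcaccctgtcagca
With ZNF174-1, the low RFI pigs ranged from 0.26 to 1.17 with a median of 0.72, and the high RFI pigs from -0.18 to 0.63 with a median of 0.28. Here 23 of 24 low RFI pigs lay above the high RFI median and 15 lay above every high RFI pig, and the difference was 0.46 ± 0.07, an FC of 1.38. ZNF174-2 gave 0.39 ± 0.10 and ZNF174-3 gave 0.28 ± 0.07, with 21 and 22 of 24 low RFI pigs above the high RFI median. These identical spots differed with an SD of 0.39 and followed each other across pigs with an r of only 0.19, which is an SD of 0.27 per spot, against an SD of 0.38 between low RFI pigs on ZNF174-2. One low RFI pig stood at -1.17 on ZNF174-2, with the next at -2.20, and no low RFI pig exceeded -2.24 on ZNF174-3. Without this pig the SD between low RFI pigs on ZNF174-2 was 0.24, while the SD per spot given above includes it. Within scan days ZNF174-3 gave 0.42 and 0.14.

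IPP and USP33 had 1 probe each, and both separated the lines.
IPP-1: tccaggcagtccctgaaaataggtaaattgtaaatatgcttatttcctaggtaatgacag
USP33-1: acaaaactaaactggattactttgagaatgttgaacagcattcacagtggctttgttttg
For IPP, the low RFI pigs ranged from 0.76 to 1.47 with a median of 1.05, and the high RFI pigs from 0.10 to 1.04 with a median of 0.73. All 24 low RFI pigs lay above the high RFI median and 13 lay above every high RFI pig. This made a line difference of 0.40 ± 0.07, an FC of 1.32. For USP33, the low RFI pigs ranged from 1.61 to 2.41 with a median of 2.05, and the high RFI pigs from 0.84 to 2.19 with a median of 1.58. All 24 low RFI pigs lay above the high RFI median, but only 4 lay above every high RFI pig. Its difference between lines was 0.44 ± 0.08, an FC of 1.35. In both genes the high RFI pigs were the more variable, with SDs of 0.27 against 0.17 for IPP and of 0.35 against 0.19 for USP33.

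**Figure D3:**
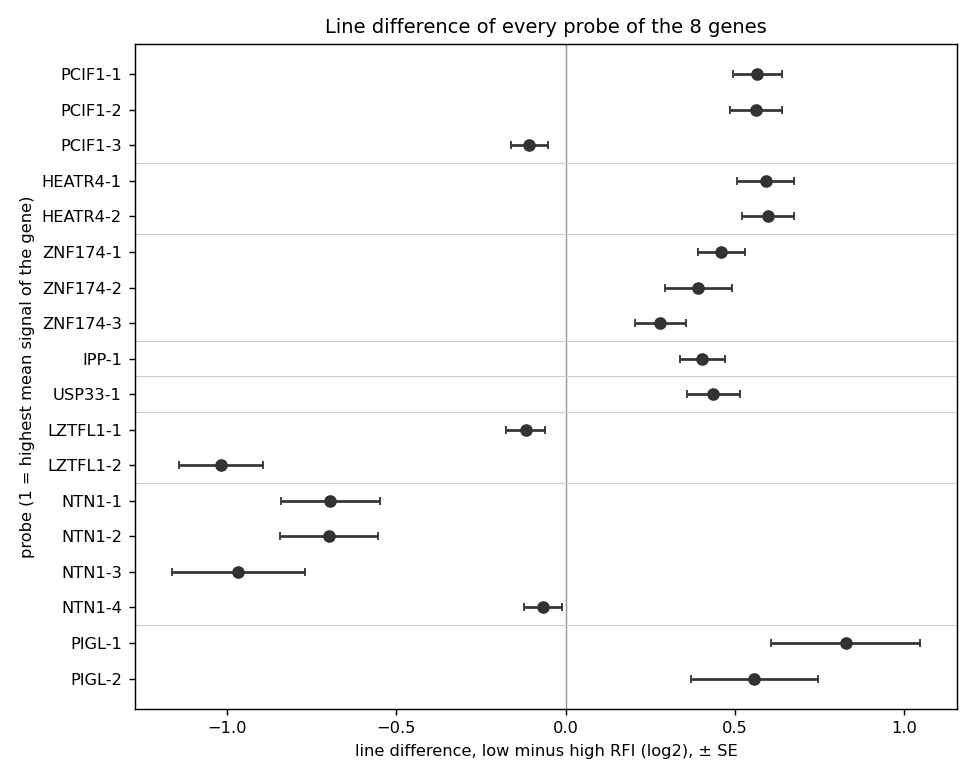
Line difference, low minus high RFI (log2, horizontal axis), of each of the 18 probes of the 8 genes (vertical axis), with the SE of the linear model as bars. PCIF1-3, LZTFL1-1 and NTN1-4 lie between -0.12 and -0.07, apart from the other probes of their genes, while all probes of HEATR4, ZNF174 and PIGL lie on the same side.

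All probes passed the line cut-offs in 5 of the 8 genes, and 3 genes (PCIF1, LZTFL1 and NTN1) each had 1 probe under them. Probes were assigned to genes by their annotation and were not placed on transcripts. Whether these 3 probes read the same transcript as the other probes of their gene was not tested. Of the 5, IPP and USP33 had 1 probe each, the HEATR4 probes share their sequence and the PIGL probes overlap. Only ZNF174 among them had probes of unlike sequence. The direction was the same on both scan days for all 18 probes. Each scan day is a part of the same pigs on which the genes were chosen, so the shared direction is no independent support. Between the scan days the difference of PIGL-1 ran from 0.60 to 1.06 and that of LZTFL1-2 from -0.93 to -1.11. For PCIF1-1 the values were 0.55 and 0.58, and for HEATR4-1 they were 0.56 and 0.63.

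The diet and the interaction of line and diet were tested in the same model, with adjustment over all tested probes. Neither was a criterion of the choice of the genes, but the choice was not independent of them. It favoured genes in which nearly all low RFI pigs, of both diets, lay beyond the high RFI median. A line difference limited to a single diet, or a large diet effect, was thus less likely among them, and the absence of calls below carries little weight. No probe of the 8 genes was called for diet at a P-BH of 5%, and among all tested probes 0.455% were. Differences between HF and LF pigs ranged from -0.15 to 0.50 over the 18 probes. At an unadjusted P under 0.05 there were 2 probes, against 14.4% of all tested probes. The first was NTN1-3, with a higher signal in HF pigs by 0.50 ± 0.20 (limma P = 0.013, P-BH = 0.22), and the other NTN1 probes gave 0.18 ± 0.15, 0.18 ± 0.14 and -0.02 ± 0.06. The second was USP33, with 0.16 ± 0.08 (limma P = 0.044, P-BH = 0.33).

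Line differences within each diet had the same direction for all 18 probes, which the choice of the genes favoured. For USP33, the median was 2.09 in HF_RFIneg and 1.98 in LF_RFIneg pigs, against 1.73 in HF_RFIpl and 1.52 in LF_RFIpl pigs. The difference of LZTFL1-2 was -1.13 ± 0.17 on HF and -0.91 ± 0.17 on LF, and that of NTN1-1 was -0.54 ± 0.21 on HF and -0.85 ± 0.21 on LF. For PIGL-1 the difference was 0.80 ± 0.31 on HF and 0.86 ± 0.31 on LF. The interaction was between -0.22 and 0.34 for the 18 probes, with an SE between 0.11 and 0.44, and none had a P-BH under 5% by limma or an unadjusted P under 0.05. Among all tested probes 0% were called for the interaction at a P-BH of 5% and 2.37% had an unadjusted P under 0.05. The SE of the interaction was largest for PIGL-1, where it was 0.44 beside a line difference of 0.83.

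**Figure D4:**
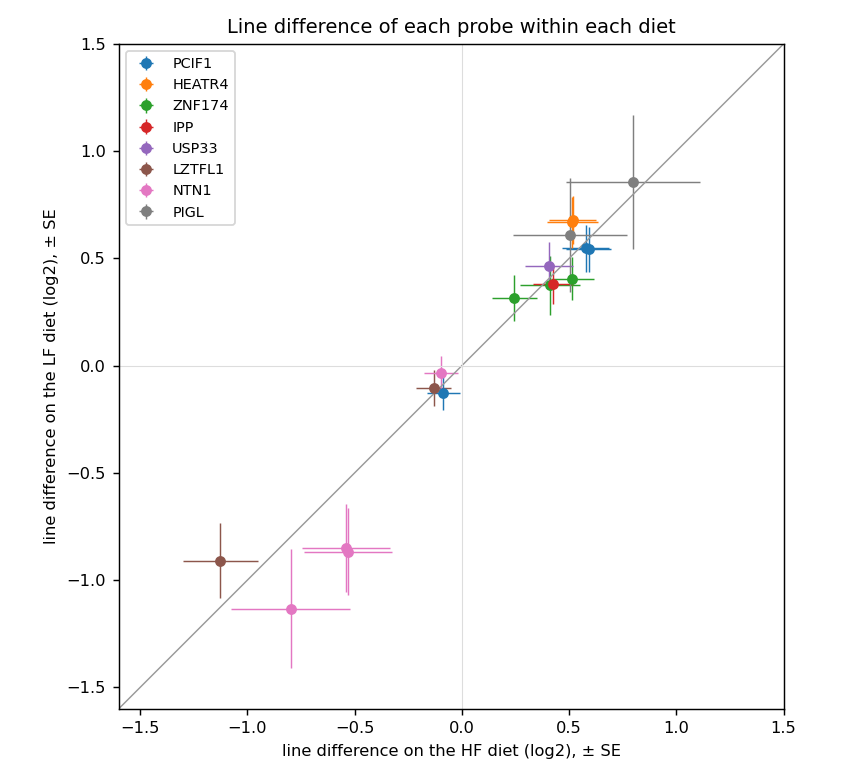
Line difference of the 18 probes, low minus high RFI (log2), among pigs fed HF (horizontal axis) and LF (vertical axis), with the SE as bars and colours for the genes. Points lie near the diagonal of equal differences, and the interaction passed the threshold for none of them.

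Few pigs lay on the side of their own line in all 8 genes at once. With 1 probe per gene, the one that separated the lines best, 6 low RFI pigs and 4 high RFI pigs were nearer to the mean of their own line than to that of the other in all 8 genes. The lowest count was 5 of 8 genes among low RFI pigs, reached by 3 pigs, and 4 of 8 among high RFI pigs, reached by 1 pig. By this count LZTFL1 and IPP placed 23 of 24 low RFI pigs with their own line, and PIGL placed 14. The genes, the probes and the line means all came from these same pigs, so the counts are high by the choice. They do not measure how other pigs would be placed. Among high RFI pigs the counts ran from 17 of 24 for IPP and USP33 to 21 for PIGL. Within lines the genes varied with little relation to each other: after removal of the group means, the 28 pairs of genes had r between -0.36 (LZTFL1 with PIGL) and 0.32 (PCIF1 with HEATR4), with a median size of 0.12, over 48 pigs whose genes were read from the same arrays.

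For each gene, the named genes most alike in their variation between pigs, up to 2 each, were sought among 10972 genes with a value in every pig, by the r of deviations from the 4 group means with the first probe of each gene. These were PKNOX1 (0.62) and CTNND1 (0.61) for PCIF1, and POMC (0.73) and DNASE1 (0.61) for HEATR4. They were C1ORF156 (0.58) and TOE1 (0.56) for ZNF174, LACTB (0.70) and SLC25A43 (0.68) for IPP, and C6ORF62 (0.60) and C7H6orf62 (0.57) for USP33. The last pair are a human and a pig symbol that differ in their chromosome prefix, so they may be the same gene counted as 2. The like genes were FZD6 (0.63) and ARHGAP24 (0.63) for LZTFL1-1 (RNF130, 0.56, and USF2, 0.54, for LZTFL1-2, the probe that separated the lines), STEAP4 (0.58) for NTN1, and TARS (0.58) and TMCO6 (0.57) for PIGL. The 99th percentile of r over all genes was between 0.37 and 0.53. Of the genes named here, PKNOX1 (-0.20 ± 0.07) and STEAP4 (-0.27 ± 0.08) passed the line cut-offs, and the others moved with their gene between pigs without passing them.

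Neighbours on the chromosome were described next, because position played no part in the choice of the genes. In the order of Sscrofa11.1, the genes lie on chromosomes 17 (PCIF1), 7 (HEATR4), 3 (ZNF174), 6 (IPP and USP33), 13 (LZTFL1) and 12 (NTN1 and PIGL). The 5 nearest genes with a tested probe on either side gave 80 neighbours, of which 8 passed the line cut-offs, against 6.97% of 11040 genes, and their median difference was 0.03, against 0.01 over all genes. Of these, 4 were higher in the low RFI line (3.54% of all genes) and 4 were lower (3.43%). They lay beside PCIF1 (3), NTN1 (3), IPP (1) and LZTFL1 (1). No neighbour of HEATR4, ZNF174, USP33 or PIGL passed on its probe of highest mean signal. With any probe of a gene counted, 12 of the 80 neighbours passed, against 9.78% of all genes, and 2 of them lay beside HEATR4.

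Beside PCIF1, the next gene ZNF335, a zinc finger regulator of transcription, was higher by 0.37 ± 0.10 in the low RFI line (limma P-BH = 0.026), with 0.55 on scan day 1 and 0.19 on scan day 2. NEURL2 was higher by 0.16 ± 0.04 (limma P-BH = 0.014), and CD40, a receptor of immune cells for helper signals, was lower by 0.25 (difference -0.25 ± 0.09, limma P-BH = 0.098). Beside NTN1, MFSD6L was higher in the low RFI line by 0.79 ± 0.13 (limma P-BH = 6.3e-05), with means of -1.03 ± 0.60 (SD, n = 24) and -1.82 ± 0.27 (SD, n = 24), and the change was opposite to that of NTN1. PIK3R5, a regulatory subunit of a PI3-kinase of leukocytes, differed by -0.33 ± 0.10 and GLP2R, the receptor of glucagon-like peptide 2, by 0.45 ± 0.14 (limma P-BH = 0.055 and 0.057). Of the 2 PIK3R5 probes, only 1 passed the line cut-offs. Beside IPP, PRDX1, a peroxidase that removes hydrogen peroxide, differed by -0.54 ± 0.09 (limma P-BH = 1.0e-04) on the other side from IPP. Beside LZTFL1, CXCR6, a chemokine receptor of lymphocytes, differed by -0.34 ± 0.11 (limma P-BH = 0.088), with -0.50 on scan day 1 and -0.18 on scan day 2. Thus the called neighbours of a gene lay on both sides for PCIF1 and NTN1. The gene just before HEATR4, NUMB, differed by 0.11 ± 0.04 on its probe of highest mean signal, under the FC cut-off. Of the 3 NUMB probes, 1 passed the line cut-offs.

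**Figure D5:**
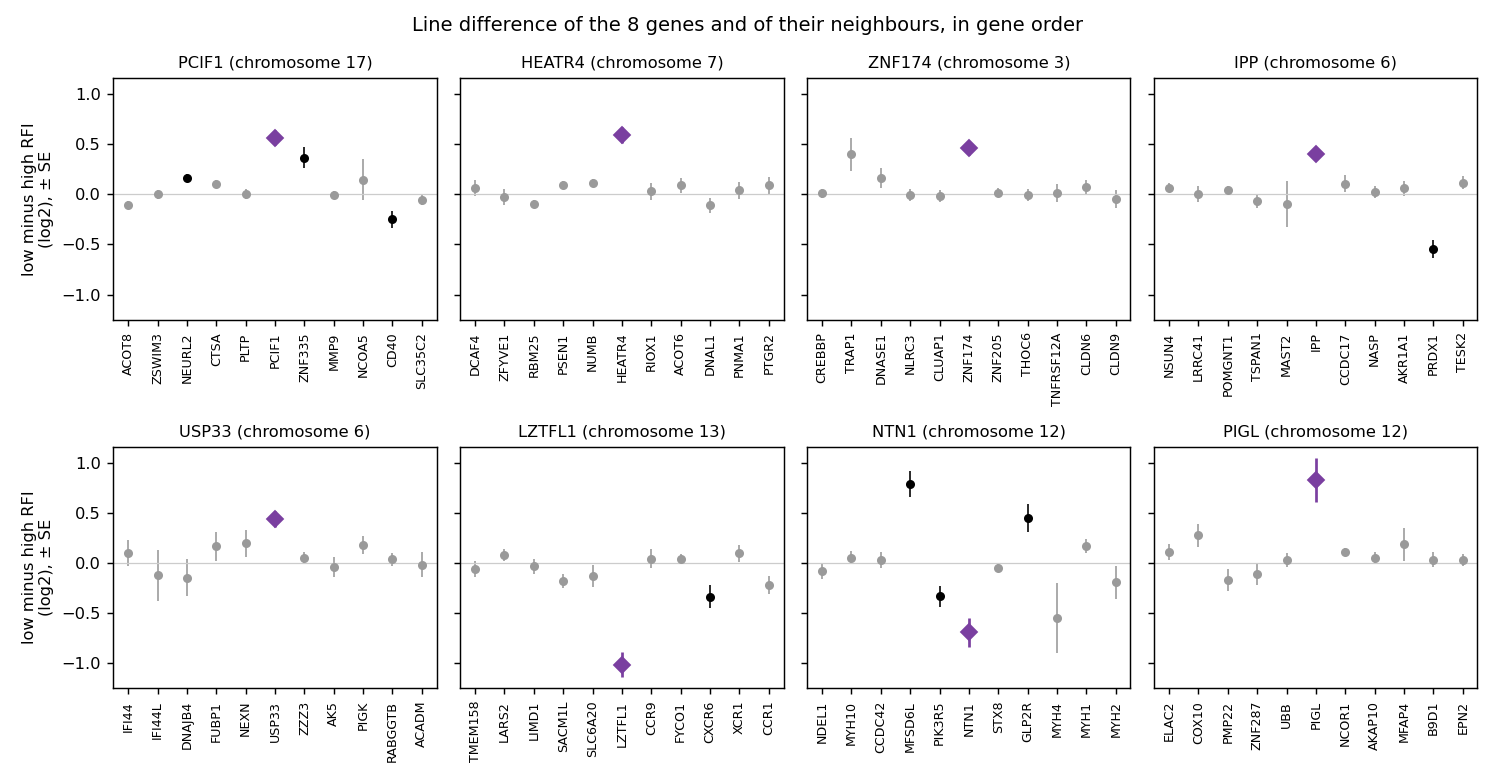
Line difference, low minus high RFI (log2, vertical axis, bars SE), of each of the 8 genes (purple diamonds, the probe that separated the lines best) and of the 5 nearest genes with a tested probe on each side, in the order of the chromosome (horizontal axis, not to scale). Black points passed the line cut-offs and grey points did not, and black points are beside PCIF1 (3), NTN1 (3), IPP (1) and LZTFL1 (1).

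Of 111 tested genes in the pathways of the 8 genes, 5 passed the line cut-offs (4.50%), against 6.97% of all genes. With any probe of a gene counted, 8 of the 111 passed, against 9.78% of all genes. Of 18 tested genes of RNA methylation and the cap, 0 passed the line cut-offs, with a median difference of 0.05, and METTL3 and METTL14, the writers of internal adenosine methylation, gave -0.11 ± 0.10 and 0.06 ± 0.12. Of 10 tested netrin ligands, receptors and partners, 0 passed, and the receptor genes NEO1, UNC5B and UNC5C gave 0.06 ± 0.07, 0.01 ± 0.09 and 0.08 ± 0.06. Of 18 tested genes of the BBSome and ciliary transport, 0 passed, although IFT52 and IFT122 each had 1 other probe past the cut-offs, and BBS1, BBS4 and BBS7 gave 0.01 ± 0.10, 0.02 ± 0.04 and -0.001 ± 0.05.

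Of 22 tested genes of GPI anchor synthesis, 1 passed, and it was lower in the low RFI line. This was PIGY, a subunit of the enzyme just before PIGL in the pathway, with -0.74 ± 0.16 (limma P-BH = 0.0017) and both of its probes past the cut-offs. Within scan days it gave -1.12 and -0.36, and the second did not pass. In mammals PIGY is encoded on a transcript that it shares with PYURF, and the probes were not placed on either. PIGA, the catalytic subunit of the same enzyme, gave 0.08 ± 0.10, and PIGW, which acts after PIGL, gave -0.07 ± 0.10. Of 8 tested partners and substrates of USP33, ROBO1, a receptor of SLIT proteins, passed with -0.31 ± 0.08 (limma P-BH = 0.019), and USP20, the nearest relative of USP33, gave 0.01 ± 0.05. With any probe of a gene counted, 2 of these 8 passed. Of 26 tested BTB-kelch genes and CUL3 partners, KLHL18 and KBTBD6 passed, with 0.15 ± 0.05 and 0.20 ± 0.07 (limma P-BH = 0.085 and 0.097), and CUL3 itself gave 0.09 ± 0.04. Of 9 tested genes with a SCAN domain, ZSCAN2 passed with 0.27 ± 0.08 (limma P-BH = 0.039). All 13 called neighbours and list genes had the same direction on both scan days, which are parts of the same pigs on which they were called. Medians of the lists lay between -0.03 and 0.05, against 0.01 over all genes.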

How the data were processed

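Liver RNA of 48 pigs was measured with 1 single-colour Agilent array per pig, and each pig was a replicate of its line and diet group. The authors deposited scanner output (Feature Extraction 10.7.3.1), with background-subtracted intensity per spot, and a table of log2 values, made with R 2.10.0 and used as an alternative here, which were log2 median signals centred on the array median. Genome builds used for the array are not given in the sources used here. The members, the gene lists and the neighbour rule were chosen with earlier results of these data known. From each log2 intensity the array median was subtracted, taken over the 45236 probes that 12 or more arrays detected well above background. A total of 483 outlier spots were set to missing, and limma 3.58.1 in R 4.3.3 was fitted with line, diet and their interaction (P-BH over all tested probes). The line effect was called at P under 0.01 and FC over 1.1. The precision is limited by the number of arrays, and for dim probes by the signal over background. On simulated arrays, 24 against 24, the line term recovered 97.5% of 200 probes changed by 1 on the log2 scale, among 44894 probes. Recovery was counted at a P-BH under 0.05, not at the line cut-offs. Of the probes of the 8 genes, only LZTFL1-2 had a line difference of at least 1 in size (-1.02). The recovery of smaller differences was not tested. Alternatives were an ANOVA without moderated variances, other centring, normalization, background and filter settings, the deposited values, outliers kept, slide or scan day as a block, each scan day alone, no interaction, and the mean of the probes of a gene. A gene outside the 8 was represented by its tested probe of highest mean signal. Named genes were all 8 members, for each the 2 genes of highest r, called neighbours and called genes of the lists, and up to 3 central genes per list. A gene within this rule is not reported here. NUMB, IFT52, IFT122, the genes alike to LZTFL1-2 and the marker genes were named beyond this rule, after their values were seen. Of the further probes, 1 was assigned by an accession in its name after the sequences were compared. Probe sequences are those of the scanner output.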

Additional observations from a re-analysis of the deposited data

How the results depend on the processing

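No paired analysis was possible because the labels give no replicate numbers that pair pigs. The 18 line differences kept their direction under all 14 alternatives applied to single probes. All of these used the pigs that the genes were chosen on, or a part of them. Taking the mean of its probes moved LZTFL1 from -0.12 (LZTFL1-1) to -0.57. Background correction by normexp brought ZNF174-2 from 0.39 to 0.13 and ZNF174-3 from 0.28 to 0.08, and the median signal without background subtraction brought them to 0.20 and 0.12. No diet or interaction value of the 18 probes reached a P-BH of 5% under any alternative. With 24 pigs of scan day 1 or 2 alone, the count over all probes fell from 3125 to 1738 or 1636, and at a P-BH of 5% from 1778 to 419 or 335, with fewer pigs in the fit. On scan day 2 alone, 5 neighbours passed, all among the 8 called on both days together, and 0 genes of the pathway lists did, against 5. On scan day 1 alone, 6 neighbours passed (4 of the 8) and 6 list genes (2 of the 5). With the mean of the probes of a gene, 7 list genes passed. Of the 18 probes, 14 passed with the median signal or the deposited values (without ZNF174-3). Of the values of the 13 called genes outside the members, 21 of 181 fell under the cut-offs, 15 of them within a scan day, and none changed direction.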
